A study of Sus scrofa with 39 samples.

Results

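The tubulin genes described here are TUBA1B, TUBA1A, TUBA4A, TUBA8, TUBB, TUBB2A, TUBB4B, TUBB6 and TUBG1, followed through whole blood of 39 preterm piglets. They are 9 named genes among 25880 in the count tables, and their rows were found by matching the pig Ensembl symbol. Of the 9, 6 had a row and 4 (TUBA1B, TUBB, TUBB6 and TUBG1) passed the filter on low counts that left 10731 genes to test. TUBA1B was picked because it had the smallest p in necrotizing enterocolitis (NEC) against control, so its values in that comparison are a description, chosen by the very contrast they come from. TUBB1, the beta-tubulin of platelets, is not one of them and served as a neighbour for comparison.

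Microtubules are hollow filaments built from dimers of alpha- and beta-tubulin, and gamma-tubulin seeds their growth. Vertebrates carry several alpha- and beta-tubulin genes whose proteins are nearly alike, and cell types differ in which of them they use. In blood, microtubules form the mitotic spindle of dividing cells, position organelles in leukocytes, and form the marginal band that keeps a resting platelet disc-shaped.

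NEC is an acute disease of the newborn intestine, seen above all after preterm birth, with inflammation and death of bowel tissue. All piglets were born preterm, received formula and were diagnosed at necropsy on day 5, and the labels give no treatment, genotype or breed. The groups were 19 controls without NEC (CON), 11 piglets with mild NEC and 9 with severe NEC. The 3 labelled batches were unequal: 7 CON, 4 mild and 3 severe came from batch 1, 5 CON and 4 severe with no mild piglet from batch 2, and 7 CON, 7 mild and 2 severe from batch 3. There were 8 females and 11 males in CON, 7 and 4 in mild NEC, and 4 and 5 in severe NEC. On which day blood was drawn is unknown here. Each piglet gave 1 library, and p-values measure the spread between piglets.

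Per library, between 12.8 and 29.0 M (mega) counts fell on genes, of which globin genes took a mean of 78.8%, between 35.0% and 90.6%. Outside globin genes, 1.48 to 12.5 M counts remained. Levels are given in CPM, counts per M of the scaled library size, and 1 count was worth between 0.0128 and 0.203 CPM. The scaled size is the counts on tested genes, globin included, times a factor from the trimmed mean of M values. CPM are therefore not shares of all counts. The control library CON 16 stood apart with the lowest globin share and a scaling factor of 4.09. The 4 controls whose library names begin with BKDL, all in batch 3, are given apart where a value rests on them. Markers of T cells, B cells, monocytes, neutrophils, platelets and red cells were all detected, and of the 7 marker lists the only gene at 0 in every library was MCM5 of the proliferation list.

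The alpha-tubulins came down to TUBA1B. TUBA1B (ENSSSCG00000000190) encodes a widely expressed alpha-tubulin and lies on chromosome 5 at 15150229 to 15153620 in Sscrofa11.1, per RefSeq. The protein-coding gene LOC100127131, at 15153516 to 15269783, overlaps it by 105 bases, and since strand use in the counting is not given, reads there cannot be told apart. It held 45418 counts in all, from 199 to 6314 per library. TUBA4A (ENSSSCG00000016216), an alpha-tubulin that human platelets are known to use, lies on chromosome 15 at 121290149 to 121294048. It had only 128 counts over the 39 libraries, with a median of 1 and a highest count of 23. A count was present in 16 of 19 CON, 5 of 11 mild and 6 of 9 severe libraries, and the gene failed the filter, so no difference was tested. TUBA1A, an alpha-tubulin known from developing neurons, and TUBA8 had identifiers in the symbol table that matched no row, and were not analysed here.

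TUBA1B was lower in NEC than in control blood. In batch 1 it read 67.1, 67.3, 43.0, 95.2, 44.6, 103 and 53.2 CPM in the 7 CON libraries, 31.6, 44.6, 50.7 and 37.3 in the 4 mild, and 40.1, 39.1 and 43.1 in the 3 severe. In batch 2 the 5 CON libraries read 58.3, 54.7, 79.6, 43.7 and 42.5 CPM and the 4 severe 46.4, 44.0, 42.6 and 37.1. In batch 3 the CON libraries read 51.2, 77.5 and 35.1 CPM, and 80.5, 46.0, 47.8 and 67.2 in the 4 named BKDL, while the 7 mild read 49.2, 28.7, 40.1, 34.1, 38.0, 34.8 and 44.7 and the 2 severe 44.1 and 39.5. The controls spread widely upward and the NEC libraries lay close together at the lower end of the control range. Of 19 CON libraries 12 lay above the highest NEC library, of 20 NEC libraries 4 lay below the lowest CON library, and all 20 lay below the CON median of 54.7 CPM.

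**Figure D1:**
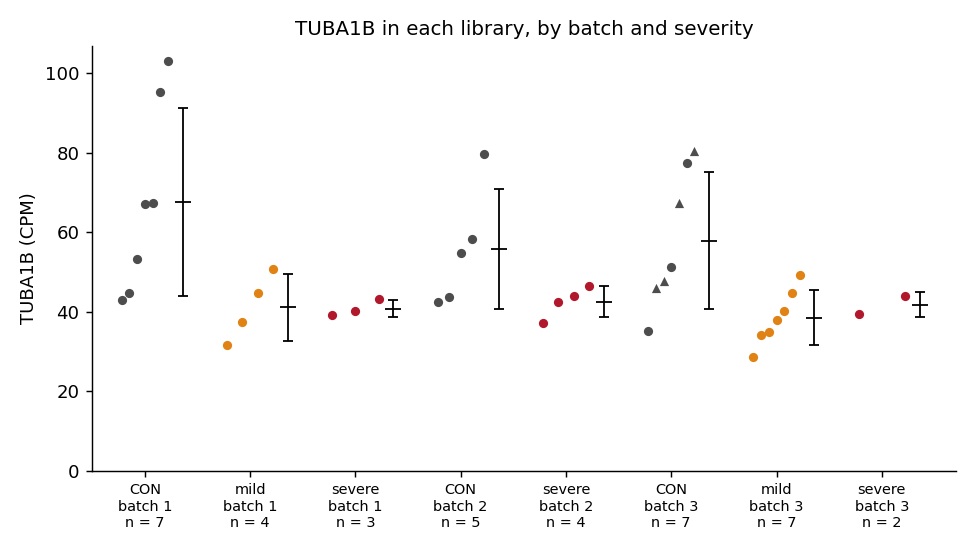
TUBA1B in CPM (linear axis) for every library, in columns of batch and severity. Points are piglets, triangles are the 4 BKDL controls, and the bars beside them give mean ± SD: CON means lie between 55.8 and 67.7 CPM and the NEC means between 38.5 and 42.5 CPM.

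The 19 CON libraries averaged 60.9 CPM ± 19.1 (SD, n = 19) of TUBA1B, the mild ones 39.4 ± 7.13 (n = 11) and the severe ones 41.8 ± 2.98 (n = 9). With batch and sex in the edgeR fit, the log2 fold change was -0.58 ± 0.12 (SE) in NEC against CON, -0.63 ± 0.15 in mild and -0.53 ± 0.16 in severe NEC, all 3 against the same controls. None of these 3 values passed after adjustment over all tested genes (adjusted p = 0.116, 0.498 and 0.0622, edgeR). DESeq2 and limma put the adjusted p of TUBA1B at 0.00436 and 0.0232 in NEC, 0.119 and 0.253 in mild and 0.0225 and 0.0388 in severe NEC, and without CON replicate 3 edgeR gave 0.0492 in severe NEC, all of them in the contrasts that share the choice of the gene or its controls. At the edge of the rule, TUBA1B had an unadjusted p of 2.16e-05, and the genes next in order were DOK2, an adaptor of leukocyte signalling, at 3.19e-05, SUDS3 at 3.61e-05 and IGFBP4 at 5.02e-05. Within batches 1, 2 and 3 the NEC minus CON value of TUBA1B was -0.72 ± 0.20, -0.39 ± 0.25 and -0.56 ± 0.19. Leaving out any 1 of the 39 libraries kept the NEC value between -0.61 and -0.52, and without the 4 BKDL controls it was -0.55.

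From highest to lowest, the mean TUBA1B level ran from CON of batch 1 (67.7 CPM ± 23.7), batch 3 (57.9 ± 17.3) and batch 2 (55.8 ± 14.98) to severe NEC of batch 2 (42.5 ± 3.93) and batch 3 (41.8 ± 3.22), mild NEC of batch 1 (41.1 ± 8.33), severe NEC of batch 1 (40.7 ± 2.09) and mild NEC of batch 3 (38.5 ± 6.88). Neighbours in that order, the step from CON to NEC included, differed by less than the larger of their SDs. The BKDL controls of batch 3 averaged 60.4 CPM ± 16.5 and the other 3 controls there 54.6 ± 21.4.

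In TUBA1B the grade of NEC, batch, sex and the interactions showed no difference that passed the threshold (adjusted p under 0.05, edgeR's quasi-likelihood test, Benjamini-Hochberg over all tested genes). The p that picked TUBA1B came from the same 39 libraries and is favoured by a small spread within groups. These values are therefore not independent of the choice. Severe and mild NEC differed by 0.10 ± 0.19 on the log2 scale (95% interval -0.28 to 0.47, adjusted p = 0.854). The batch term had adjusted p = 0.668. Males minus females gave 0.0047 ± 0.13 (adjusted p = 0.995). The NEC difference in TUBA1B gave adjusted p = 0.935 for its dependence on batch, and differed by 0.06 ± 0.25 between the sexes (95% interval -0.44 to 0.56).

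The beta-tubulins among the members were counted far more thinly than TUBA1B. TUBB (ENSSSCG00000001379), the main beta-tubulin of many dividing cells, lies on chromosome 7 at 23247827 to 23252240 and carries TUBB2A as a synonym in RefSeq. It held 791 counts over all libraries, from 1 to 73 each. TUBB6 (ENSSSCG00000038992), a more divergent beta-tubulin, lies on chromosome 6 at 97233639 to 97240692 and held 974 counts, from 2 to 87 each. TUBB4B (ENSSSCG00000037046), a widely expressed beta-tubulin that also serves cilia, had a row with 0 counts in all 39 libraries, which allows up to 3 counts each, worth 0.0383 to 0.610 CPM. RefSeq places TUBB4B on a sequence with no chromosome. TUBB2A had an identifier that matched no row and was not analysed here. Reads aligned to several places made up a mean of 30.5% (16.4% to 51.9%) of counts and closing lines together and were assigned to no gene, so levels of near-identical tubulin copies, and the 0 of TUBB4B, are uncertain.

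TUBB passed the test for batch and not the tests for severity. In batch 1 it read 0.399, 0.191, 0.546, 0.560, 0.734, 0.325 and 0.406 CPM in CON, 0.795, 0.0978, 0.192 and 0.707 in mild, and 0.395, 0.177 and 0.580 in severe NEC. In batch 2 it read 1.98, 1.32, 1.32, 0.510 and 0.521 CPM in CON and 1.23, 0.566, 0.939 and 1.18 in severe NEC. In batch 3 it read 1.40, 0.242 and 0.863 CPM in 3 CON libraries and 0.229, 0.630, 0.413 and 0.305 in the 4 BKDL controls, against 1.40, 1.33, 0.967, 1.55, 0.531, 2.28 and 0.832 in mild and 1.58 and 3.52 in severe NEC. The severity groups overlapped in batches 1 and 2, and in batch 3 both severe libraries lay above every control while the mild ones overlapped with the controls. The lower of those severe libraries (1.58 CPM) lay near the highest control (1.40 CPM), so their order is within counting error.

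**Figure D2:**
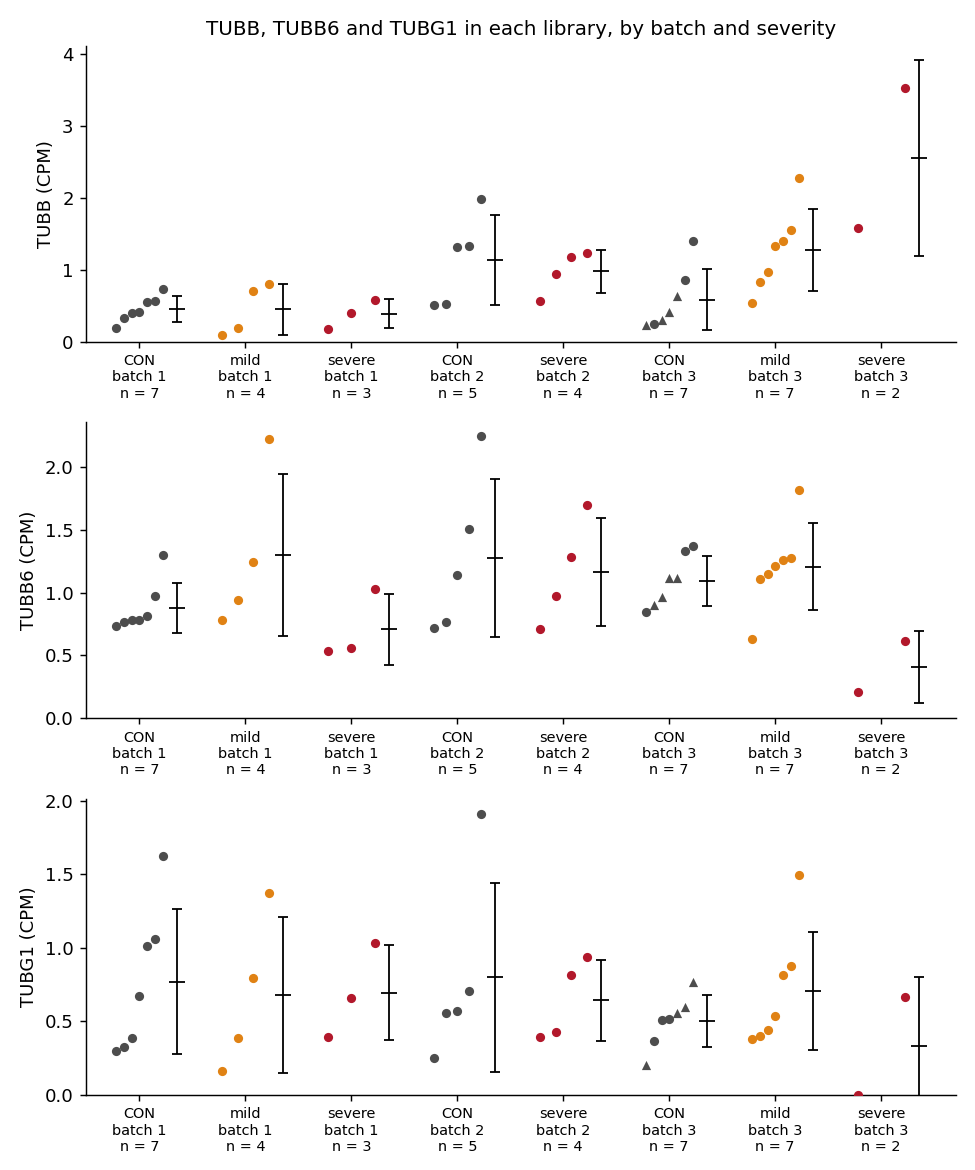
TUBB, TUBB6 and TUBG1 in CPM (linear axes, each with its own scale) for every library, in columns of batch and severity. Points are piglets, triangles are the BKDL controls, and bars give mean ± SD, cut off at 0: TUBB is low throughout batch 1 (mean 0.436 CPM) and reaches 3.52 CPM in 1 severe library of batch 3.

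Controls averaged 0.679 CPM ± 0.488 (SD, n = 19) of TUBB, mild NEC 0.971 ± 0.635 (n = 11) and severe NEC 1.13 ± 1.00 (n = 9). The log2 fold change was 0.58 ± 0.30 in NEC (adjusted p = 0.365), 0.59 ± 0.37 in mild (0.671) and 0.57 ± 0.35 in severe NEC (0.377), and severe minus mild was -0.02 ± 0.38 (95% interval -0.78 to 0.74, adjusted p = 0.988), by edgeR. These values rested on batch 3: NEC minus CON was -0.07 ± 0.48, -0.13 ± 0.49 and 1.51 ± 0.41 in batches 1, 2 and 3. Without batch 3 the NEC value was -0.19. In batch 3 the BKDL controls averaged 0.394 CPM ± 0.174 and the other 3 controls 0.837 ± 0.582, and without the BKDL controls the NEC value was 0.16. Leaving out NEC_Severe replicate 9, the library at 3.52 CPM, brought the severe value from 0.57 to 0.21. The dependence of the NEC difference on batch had p = 0.0154 in TUBB, which did not survive adjustment (adjusted p = 0.646).

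Across all piglets TUBB averaged 0.436 CPM ± 0.225 (n = 14) in batch 1, 1.06 ± 0.484 (n = 9) in batch 2 and 1.13 ± 0.863 (n = 16) in batch 3. It rose by 1.13 ± 0.41 on the log2 scale from batch 1 to batch 2 and by 1.15 ± 0.35 from batch 1 to batch 3, and the batch term passed (adjusted p = 0.0308). TUBB was the only member of the 4 tested to pass there, in a comparison that called 21.7% of all tested genes, so the count is near the background. The call was lost without NEC_Mild replicate 2 (adjusted p = 0.0724), NEC_Mild replicate 3 (0.0723), NEC_Severe replicate 2 (0.0727) or NEC_Severe replicate 8 (0.0509), and without batch 1 (0.992).

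TUBB6 read lower in severe than in mild NEC, short of the threshold. CON libraries ran from 0.716 to 2.25 CPM with a median of 0.964, mild from 0.629 to 2.22 with a median of 1.21, and severe from 0.207 to 1.70 with a median of 0.707. The ranges overlapped, and the 2 severe libraries of batch 3, at 0.613 and 0.207 CPM, were below all 14 other libraries of that batch. The value of 0.207, in NEC_Severe replicate 9, is below the worth of 3 counts there (0.310 CPM). The other lay just under the lowest mild library of batch 3 (0.629), so the order there is within counting error. Means were 1.06 CPM ± 0.377 (n = 19), 1.24 ± 0.448 (n = 11) and 0.846 ± 0.453 (n = 9). The log2 fold change was -0.0037 ± 0.20 in NEC against CON (adjusted p = 0.995), 0.35 ± 0.23 in mild (0.675) and -0.45 ± 0.24 in severe NEC (0.317). Severe minus mild was -0.80 ± 0.29 (95% interval -1.38 to -0.21), with p = 0.00856 and adjusted p = 0.261 by edgeR. Within batches 1, 2 and 3, severe minus CON was -0.34 ± 0.41, -0.12 ± 0.35 and -1.30 ± 0.52. The batch term of TUBB6 had adjusted p = 0.157.

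Levels of B cell markers moved the same way as TUBB6 between the grades of NEC. The summed level of 9 B cell markers was 67.0 CPM ± 16.5 in CON, 85.1 ± 43.4 (44.1 to 187) in mild and 36.8 ± 17.1 (20.1 to 67.1) in severe NEC. In severe against mild NEC 9 of 9 of these markers were below 0 and 4 fell, beside 55% of all tested genes below 0 and 0.112% called. Mostly below 0 too were T cell (12 of 12), red cell (8 of 9) and proliferation markers (7 of 11). Monocyte (8 of 8), neutrophil (7 of 7) and platelet markers (8 of 9) were mostly above 0. None of the 9 B cell markers is at 0 in every library, and their part in the TUBB6 value was not tested. Since these are bulk samples, fewer cells of a type and less RNA per cell cannot be told apart.

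TUBG1 (ENSSSCG00000036106) encodes gamma-tubulin, the seed of new microtubules at the centrosome. It held 616 counts, from 0 to 52 per library, and only NEC_Severe replicate 9 had none. CON libraries ran from 0.203 to 1.91 CPM (median 0.556), mild from 0.159 to 1.498 (median 0.537) and severe from 0 to 1.03 (median 0.659). The 3 groups overlapped, with the highest library in CON, and had means of 0.678 CPM ± 0.450, 0.696 ± 0.426 and 0.591 ± 0.323. The log2 fold change was -0.02 ± 0.29 in NEC (adjusted p = 0.986), 0.23 ± 0.35 in mild (0.875) and -0.28 ± 0.36 in severe NEC (0.723). Severe minus mild was -0.51 ± 0.43 (95% interval -1.38 to 0.36, adjusted p = 0.631), and the batch term had adjusted p = 0.478.

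No member passed by edgeR between the severity groups, TUBA1B, which was picked there, included. By edgeR 0 of the 3 other tested members passed in NEC against CON, in mild or in severe NEC against CON, where 0%, 0% and 2.09% of all 10731 genes did. At an unadjusted p under 0.05 there were 0 of 3 in each, against 1549, 841 and 1995 of all genes. DESeq2 and limma also called 0 of them in each of the 3 comparisons, although DESeq2 gave them no adjusted p in NEC against CON. In severe against mild NEC 0 of 4 passed (1, TUBB6, at an unadjusted p under 0.05), beside 0.112% of all genes. The count over all genes in severe NEC against CON, 224, moved between 12 without NEC_Severe replicate 2 and 721 without NEC_Severe replicate 9, and that in severe against mild NEC, 12, between 5 without NEC_Severe replicate 8 and 104 without NEC_Mild replicate 7. None of the 4 passed for sex (0.121% of all genes), for NEC by batch (0%, with 715 genes and TUBB at an unadjusted p under 0.05) or for NEC by sex (0%, with 153 genes and 0 of 4 members).

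**Figure D3:**
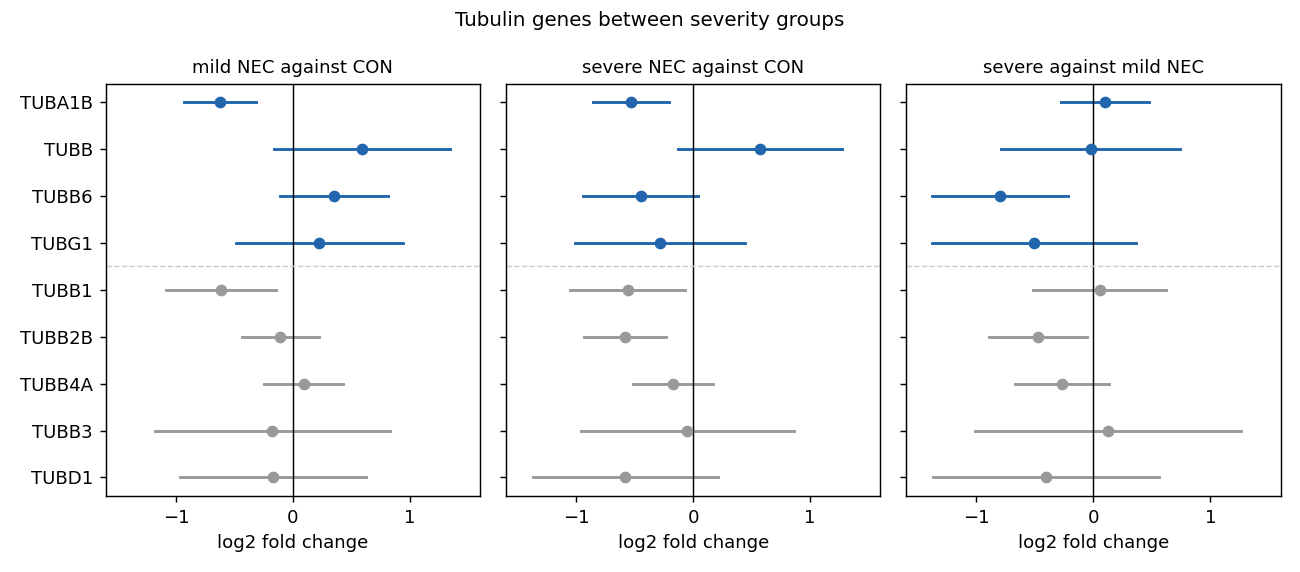
Log2 fold changes (points) with 95% intervals (lines) from edgeR for 9 tested tubulin genes in 3 comparisons between severity groups; blue marks the 4 members and grey the other tubulin genes. TUBA1B, chosen for NEC against control, reads -0.63 and -0.53 in the first 2 panels and 0.10 in the last, and TUBB6 reads -0.80 in the last.

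Beside the members, 5 of 15 other named tubulin genes were tested, and 0 of 5 passed between severity groups by edgeR. Their median log2 fold change was -0.32 in NEC, -0.17 in mild and -0.56 in severe NEC against CON. All tested genes had -0.0085, 0.0025 and -0.045 there. TUBB1, which builds the marginal band of platelets, read 505 CPM ± 238 in CON, 327 ± 177 in mild and 311 ± 79.6 in severe NEC, a log2 fold change of -0.59 ± 0.18 in NEC against CON (adjusted p = 0.172). TUBB2B, a beta-tubulin best known from neurons, read 8.65 CPM ± 3.47 in CON, 7.52 ± 2.25 in mild and 5.49 ± 2.16 in severe NEC. Its log2 fold change was -0.32 ± 0.14 in NEC (adjusted p = 0.287, edgeR), -0.11 ± 0.16 in mild (0.873) and -0.58 ± 0.17 in severe NEC (0.0617). TUBB2B fell by 0.66 ± 0.19 from batch 1 to batch 2 and by 0.72 ± 0.15 to batch 3 (batch term adjusted p = 0.00104), the opposite direction to TUBB. TUBB1 and TUBB4A also passed the batch term (adjusted p = 0.0165 and 0.0430).

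Whether the other tubulins followed TUBA1B from piglet to piglet was tested on log2 CPM with the mean of each batch and severity cell removed, over 39 piglets, with permutations within cells. None of the 3 members did so past the threshold. Pearson's r with TUBA1B was -0.32 for TUBB (permutation p = 0.0729, adjusted over 3 pairs 0.219), -0.034 for TUBB6 and -0.079 for TUBG1 (both adjusted p = 0.826). Spearman's rho was -0.30 (p = 0.100), 0.052 (0.758) and -0.11 (0.544). Without the 2 piglets farthest from the median of TUBA1B, r was -0.27, -0.016 and -0.012. For TUBB, r read -0.41, 0.60 and -0.61 in the 3 batches in turn, so the sign turned in batch 2.

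TUBB1 and TUBB2B did follow TUBA1B. These pairs were added after the values were seen, and their p-values are adjusted over 8 pairs. TUBB1 had r = 0.59 (permutation p = 0.00012, adjusted 0.00096), rho = 0.66 (p = 8e-05, adjusted 0.00064), and r = 0.59 again without the 2 farthest piglets. Within batches 1, 2 and 3, r was 0.60, 0.87 and 0.51 (adjusted p = 0.0633, 0.110 and 0.173). TUBB2B had r = 0.50 (p = 0.00094, adjusted 0.00376), rho = 0.50 (p = 0.00269), and r = 0.51 without the 2 farthest, with 0.39, 0.82 and 0.46 in the 3 batches (adjusted p = 0.225, 0.110 and 0.173). In the 20 NEC piglets alone TUBB1 had r = 0.71 (adjusted p = 0.0388) and TUBB2B had 0.27 (adjusted p = 0.603).

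**Figure D4:**
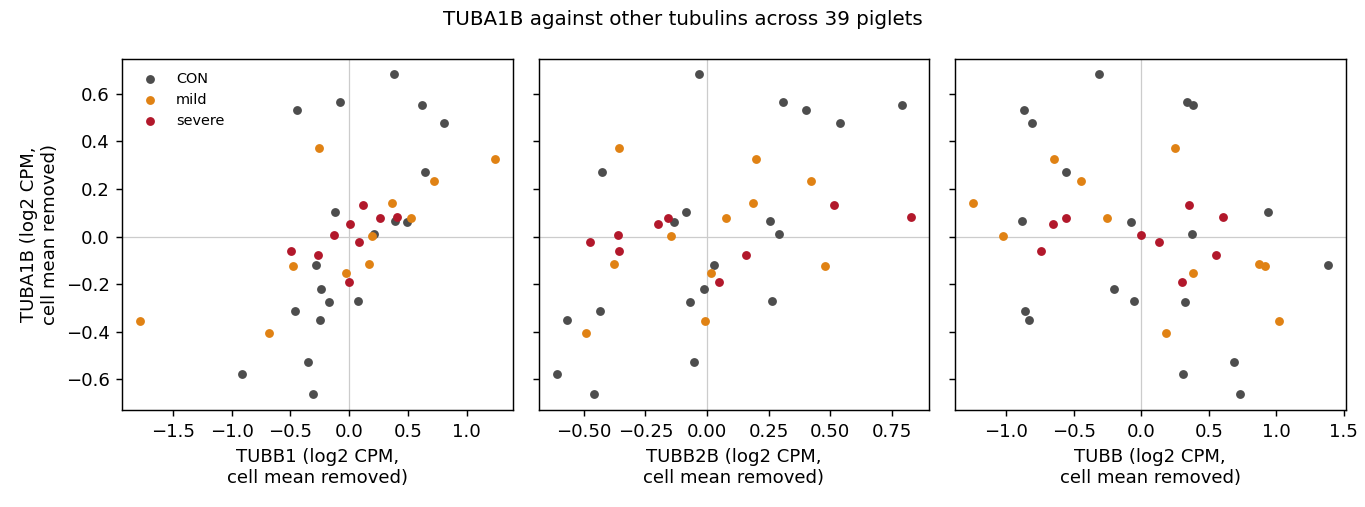
TUBA1B against TUBB1, TUBB2B and TUBB, each as log2 CPM with the mean of its batch and severity cell removed; points are 39 piglets coloured by severity. TUBA1B rises with TUBB1 (r = 0.59) and TUBB2B (r = 0.50), while r with TUBB is -0.32 and did not pass.

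The platelet marker sum was lower in NEC, as TUBA1B was, and followed TUBA1B from piglet to piglet. The summed level of 9 platelet markers, TUBB1 among them, was 1386 CPM ± 489 (753 to 2253) in CON, 869 ± 473 (173 to 1670) in mild and 900 ± 244 (587 to 1393) in severe NEC. Most of the sum in CON came from TUBB1 (mean 505 CPM) and CLU (397 CPM). Its r with TUBA1B is therefore not separate from that of TUBB1 alone (0.59). In NEC, mild NEC and severe NEC against CON, 9 of 9 were below 0 and 0 passed by edgeR, and none was at 0 in every library. Over all tested genes 51.3%, 49.7% and 55.3% were below 0 in these comparisons, and 0%, 0% and 2.09% were called. Of 7 marker sums, added after the values were seen, the platelet sum was the only one to pass with TUBA1B in cells of batch and severity (r = 0.59, permutation p = 2e-05, adjusted 0.00014, rho = 0.73 at p = 1e-05, the smallest that 100000 permutations can give). Without the 2 farthest piglets r was 0.59, and within batches 1, 2 and 3 it was 0.54, 0.72 and 0.65 (adjusted p = 0.0984, 0.0497 and 0.0412). The neutrophil sum had r = 0.38 (adjusted p = 0.0837) over all piglets and passed in batch 2 alone (r = 0.81, permutation p adjusted 0.0497, with r = 0.46 without the 2 farthest piglets there), while r over all piglets was 0.25 for the monocyte sum, 0.11 for proliferation, 0.014 for B cells, -0.0097 for red cells and -0.14 for T cells. The part of platelets in the TUBA1B difference was not tested.

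The genes most like TUBA1B over the 39 libraries, by Pearson's r with batch means removed, were ILK (0.85), SELENOO (0.80), AKIP1 (0.80), FERMT3 (0.80) and ALDOA (0.79), where the median over 9299 tested genes with a symbol was -0.0012. ILK encodes integrin-linked kinase and FERMT3 kindlin-3, the integrin activator of blood cells. TUBB1 stood at rank 32 (0.72) and TUBB2B at rank 203 (0.55), while TUBB stood at rank 8222 (-0.34). TUBB was most like TXNDC17 (0.61), HNRNPD (0.59), RNF181 (0.57), SYVN1 (0.55) and PSMD10 (0.54). Among the genes most like TUBB6 were VAMP2 (0.71), ZCCHC7 (0.69), TAF4B (0.68) and CDCA8 (0.66). TUBG1 was most like ZNF692 (0.63), MTO1 (0.63), VPS18 (0.63), MEST (0.63) and MRPS10 (0.62). Libraries that share low depth or cell makeup enter all of these values, which are descriptions. Severity means were not removed, so the NEC difference that picked TUBA1B also enters its likeness values and ranks. With the means of batch and severity cells removed, r with TUBA1B was 0.59 for TUBB1, 0.50 for TUBB2B and -0.32 for TUBB.

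Genes that fold, seed, modify and use tubulin were taken from lists fixed with earlier results known, and 2 genes of them passed between severity groups, both in severe NEC against CON, where 2.09% of all tested genes did. Read against that share, the counts are near the background and say nothing particular of the lists. Of 18 tested folding factors, the chaperones and cofactors that make tubulin dimers, 0 passed in any comparison, and 15 were below 0 and 3 above in severe NEC (median -0.12). Over all tested genes 55.3% were below 0 there, with a median of -0.045. The prefoldin subunit PFDN4 read 2.24 CPM ± 0.822 in CON and 1.57 ± 0.667 in severe NEC (-0.45 ± 0.21, adjusted p = 0.235). Of 4 genes of tubulin autoregulation, the decay of tubulin mRNA when free dimers are in excess, 0 passed, and TTC5, which recognises the nascent tubulin, read -0.63 ± 0.33 in severe NEC (adjusted p = 0.289). In severe against mild NEC 55% of all tested genes were below 0, with a median of -0.043. Of 9 tested partners of gamma-tubulin in its ring complex, 0 passed in any comparison, though 9 of 9 were below 0 in severe against mild NEC (median -0.53). Among them TUBGCP4 read 1.44 CPM ± 0.620 in mild and 0.919 ± 0.308 in severe NEC (-0.75 ± 0.29, adjusted p = 0.291), and MZT1 read -0.69 ± 0.23 in severe NEC against CON (adjusted p = 0.0820).

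Of 13 tested tubulin-modifying enzymes 0 passed. VASH1, which removes the terminal tyrosine of alpha-tubulin, came nearest, at 2.9997 CPM ± 1.69 in CON and 5.20 ± 2.06 in severe NEC (0.71 ± 0.23, adjusted p = 0.0825). Of 25 tested binding and severing proteins, 1 fell and 0 rose in severe NEC, beside the 2.09% of all tested genes called. It was STMN3, a stathmin that sequesters tubulin dimers, at 0.406 to 2.53 CPM (median 1.42) in CON and 0.207 to 1.55 (median 0.672) in severe NEC, overlapping groups with a log2 fold change of -1.06 ± 0.28 (adjusted p = 0.0361, edgeR). Of 29 tested motors and their adaptors, 1 rose and 0 fell in severe NEC, again near that share. It was KIF1B, a kinesin that carries vesicles and mitochondria, at 2.03 to 5.77 CPM (median 4.27) in CON and 4.58 to 8.79 (median 6.60) in severe NEC, a log2 fold change of 0.65 ± 0.18 (adjusted p = 0.0407). The kinesin heavy chain KIF5B (0.54 ± 0.16, adjusted p = 0.0547) and the kinesin light chain KLC2 (-0.80 ± 0.25, adjusted p = 0.0648) came close.

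Both calls were near the threshold. STMN3 passed in 32 of 39 fits that left out 1 library, being lost without CON replicate 12 (adjusted p = 0.0559) or NEC_Severe replicate 1, 2, 4, 5, 6 or 8 (0.0919, 0.0698, 0.0588, 0.0542, 0.0684 and 0.0896). KIF1B passed in 25 of 39, being lost without CON replicate 2, 5, 6, 8, 9, 11, 12, 18 or 19 (0.0503 to 0.0619) or NEC_Severe replicate 1, 2, 4, 5 or 6 (0.0682 to 0.112). In the same comparison the T cell marker sum was 282 CPM ± 65.5 (184 to 401) in CON and 198 ± 70.2 (83.6 to 301) in severe NEC, with 12 of 12 markers below 0 and 1 called. All 9 B cell markers were below 0 and 4 fell. The monocyte sum was 417 CPM ± 177 (181 to 755) in CON and 596 ± 140 (368 to 794) in severe NEC, with 8 of 8 above 0 and 4 called. Over all tested genes 55.3% were below 0 and 2.09% were called. Platelet (9 of 9) and red cell markers (8 of 9) were mostly below 0 too, and neutrophil markers (6 of 7) mostly above, with 0 called. None of the T cell, B cell and monocyte markers was at 0 in every library, and the part of these cell types in the STMN3 and KIF1B values was not tested.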

How the data were processed

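Whole-blood RNA (500 ng) was extracted with a magnetic-bead blood kit and sequenced as 150 base paired-end mRNA libraries, per the labels' protocols. Each piglet has 1 deposited file of whole-number read counts by Ensembl gene, with no normalization by the authors. The submitters' processing notes name Trim Galore, TopHat, HTSeq, DESeq2 and the build Sscrofa11.1, and neither versions nor strand use could be read from any source at hand. The 5 closing lines of each file name no gene and stayed out of library sizes and tests: reads aligned to several places had a mean share of 30.5%, ambiguous reads 7.48% and reads outside features 2.20%. Symbols matched 14857 of 25880 genes, and coordinates came from the RefSeq gene table of Sscrofa11.1.

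Counts were tested with edgeR 4.0.16 (R 4.3.3; TMM, filterByExpr with a minimum count of 10, robust quasi-likelihood fit, severity or NEC with batch and sex, all 39 libraries, adjusted p under 0.05 over 10731 genes), with DESeq2 1.42.0 and limma 3.58.1 as alternatives, and the fits and the permutation test were tested on simulated data. SEs are the fold change over the root of F. Correlations used log2 CPM with a prior count of 2 and 100000 permutations, two-sided. Intervals of fold changes come from the same fit and carry the spread between piglets, while the floor of 3 counts covers counting error only. All pairs of replicates differed by more than counting error (lowest chi-square per degree of freedom 8.53).

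The members and lists were chosen with earlier results of these data known. Named were all 9 members, up to 3 genes per list and comparison by smallest p, of which a part is printed, and the 5 genes most like each tested member. Some genes that the rule for likeness names are not reported here.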

Additional observations from a re-analysis of the deposited data

Results flagged for a closer look

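Of 28 sets of libraries examined (a tested member in a severity group or a cell of batch and severity that held 4 to 10 libraries), 3 held a library far from the others by Dixon's criterion, which chance flags in about 1 in 20. TUBB read 3.52 CPM in NEC_Severe replicate 9, where the other 8 severe libraries lay between 0.177 and 1.58 CPM, and that library had the fewest detected genes of all 39 (10674). TUBB6 read 1.30 CPM in CON replicate 1, where the other 6 controls of batch 1 lay between 0.734 and 0.976 CPM. TUBG1 read 1.91 CPM in CON replicate 10, where the other 4 controls of batch 2 lay between 0.251 and 0.705 CPM. TUBA1B had no such library in the sets of that size.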

How the results depend on the processing

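TUBA1B kept its sign in NEC against CON in 39 fits that left out 1 library (-0.61 to -0.52) and in 13 other alternatives (-0.64 without batch 2 to -0.48 by limma). That comparison picked the gene and the fits share most of their piglets, so the kept sign is a description and no support. The counts of tested members called between severity groups, by sex or by interaction stayed at 0 in all alternatives. TUBA1B was left out of the counts against CON. The 5 tested other tubulin genes were not counted under these alternatives. The batch count of 1 (TUBB) became 0 without batch 1 and with genes kept at 1 CPM in at least 20 libraries, where TUBB was not tested, and ranged from 0 to 1 over leave-outs. With 5 other tubulins added, 2 correlated with TUBA1B instead of 0. Some signs turned, with no call on either side. Without batch 3, TUBB in NEC went from 0.58 to -0.19 and in severe NEC from 0.57 to -0.26, and TUBG1 in mild NEC from 0.23 to -0.15. Values nearer 0 also turned: TUBB in severe against mild NEC was 0.027 with no low-count filter, 0.037 without the sex term, 0.13 without batch and sex, 0.0015 with the title number for batch, 0.18 without the BKDL controls and 0.27 without batch 2 (leave-outs -0.45 to 0.11). TUBB6 in NEC was 0.0092 with DESeq2 size factors, 0.0081 with no filter, 0.0033 with the title number, 0.014 with globin genes removed, 0.048 without batch 2 and 0.045 without batch 3 (-0.074 to 0.071). TUBG1 in NEC was 0.095 by limma, 0.016 without batch 1 and 0.077 without batch 2 (-0.12 to 0.13). The cause was not tested. Over all genes, DESeq2 and limma called 60 and 123 in NEC against CON (edgeR 0), 568 and 1704 in severe NEC (224), 108 and 839 in severe against mild (12), 134 and 29 for sex (13), and limma 4272 for batch (2328). For severe NEC the count was 127 with no filter, 38 without batch and sex, 92 with the title number, 70 without the BKDL controls, and 0, 12 and 537 without batches 1, 2 and 3. STMN3 passed in 6 of the other 13 alternatives and KIF1B in 7 of 13 (adjusted p up to 0.189 and 0.328). Counts of 0 to 87 per library limit TUBB, TUBB6 and TUBG1. No pairing within animals was possible because each piglet gave 1 library. The labels give no replicate numbers: those used here follow accession order and only name a library.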
